A study of Mus musculus with 18 samples.

Results

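The response of the control line to ionizing radiation (IR) 1 day after a dose of 5 Gy was taken from 6 of the 18 arrays of a study of the transcription factors USF1 and USF2. All cells were M12-5B3, a mouse B lymphoma line without working p53, derived from M12, which carries tetracycline-controlled RAG1 and GFP-RAG2 transgenes, kept silent here, and stands at a germinal-centre stage of B cell development. The sshRNA cells carried a scrambled lentiviral shRNA and the USFKD cells carried shRNAs against Usf1 and Usf2, and both were clonal lines selected in puromycin, so that differences between them can include those between clones. The 3 sshRNA 1d IR arrays held RNA of control cells collected 24 hours after 5 Gy from a cobalt-60 source, and the 3 sshRNA no IR arrays held RNA of the same line without radiation. The USFKD 1d IR and USFKD no IR groups, also 3 arrays each, were treated in the same way and are set beside the control line. The study had 1 untreated group per line, so that the effect of radiation and that of a day in culture cannot be told apart. All 65956 transcript clusters were members, and 30098 genes were described by 1 cluster each, the brightest of those with a single gene symbol. Values are log2 signals as deposited, so that a difference of 1 is a doubling of signal. In 1339 rows a value exceeded 16, and since the sources used here do not say how such values arose, the folds of the brightest RNAs are those of the deposited scale. A gene or cluster was called when its adjusted p was below 0.05 over all 72688 rows and its change was over 1.5-fold.

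A radiation dose of this size breaks DNA, and the ATM, ATR and DNA-PK kinases then signal to p53, to cell cycle checkpoints and to NF-kB. Cells without p53 lack the induction of its targets, such as the cell cycle inhibitor Cdkn1a, and rely on the S and G2 checkpoints, which involve Topbp1, Cdc7 and other replication factors. Small noncoding RNAs run the RNA machinery of the cell. The 5S rRNA is a ribosome component made by RNA polymerase III, spliceosomal RNAs such as U1 recognise and remove introns, and box C/D and H/ACA small nucleolar RNAs (snoRNAs) guide the chemical modification of rRNA. Small Cajal body RNAs guide the modification of spliceosomal RNAs, and most mouse snoRNAs are cut from the introns of host genes.

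In the control line 1324 clusters were called 1 day after IR (2.01% of those tested), 1160 higher (1.76%) and 164 lower (0.249%). By gene, 347 were higher (1.15%) and 146 were lower (0.485%). The 347 genes above had 294 distinct profiles, since copies of a small RNA gene can be given one and the same value. Replicate ranges of the groups were apart for each of the 493 called genes, and they were apart for 28.3% of all genes. The direction of change followed the class of the gene. Small RNA genes (rRNA, snRNA, snoRNA, guide RNA and miRNA) gave 185 calls, all of them higher, among 2576 genes (7.18%), with 133 distinct profiles. Long noncoding RNA genes gave 16 higher and 0 lower calls among 3198, with a median change of 0.005. Protein-coding genes gave 124 higher and 82 lower calls among 19088. Pseudogenes ran the other way, with 19 higher and 64 lower calls among 4435. Clusters with no gene symbol held 736 of the 1160 higher calls and 16 of the 164 lower ones, and are not described further.

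**Figure D1:**
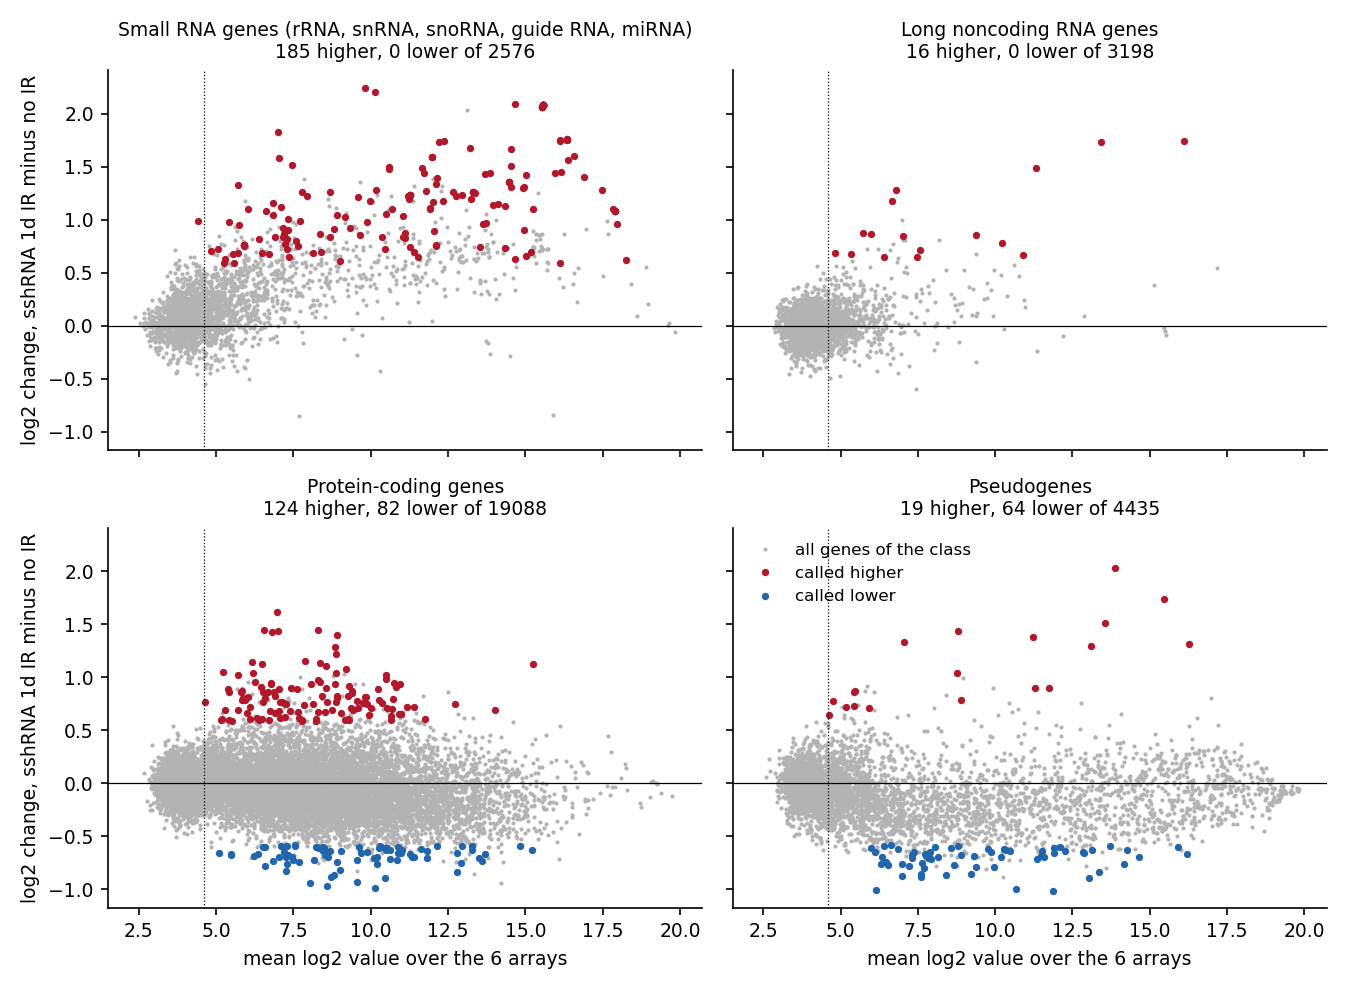
Log2 change (sshRNA 1d IR minus sshRNA no IR, vertical axis) against mean log2 signal over the 6 arrays (horizontal axis) for 4 classes of gene. Each point is a gene, red when called higher and blue when called lower, and the dotted line is the limit of dim signal at 4.60; the 185 calls among small RNA genes were all higher, and the calls among pseudogenes were 19 higher and 64 lower.

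The split between higher and lower calls moved with the scaling of the arrays. With each array centred on its bright clusters, which lowered the change of the median gene by 0.136, 832 clusters were higher and 664 lower, and with a repeated quantile normalization 900 were higher and 498 lower. By gene the balance turned over, with 235 higher and 562 lower after centring and 281 higher and 428 lower after quantile normalization. Of the 493 called genes, 381 remained called after centring, among them all 146 that were lower. Centring lowered the change of every gene alike. Called increases no larger than that of the thymidine kinase gene Tk1 (0.711 before and 0.575 after centring) thus fell below the fold required. The first sshRNA 1d IR array weighed most in the calls, and without it 337 clusters were higher and 26 lower. Signals were bulk averages, in which fewer cells of a type and less RNA per cell cannot be told apart. All 13 B cell markers measured were above the dim limit and none was called, with Cd79a, Cd79b, Ms4a1 and Pax5 among them. Of the markers of other cells, 6 of 17 for T and NK, 2 of 19 for myeloid, 1 of 8 for erythroid and 4 of 15 for stromal and epithelial cells were above it, and none was called. The defining markers Cd3e (T cells), Lyz2 and Csf1r (myeloid cells) were below the limit. Those of epithelium and stroma, Epcam and Col1a1, were above it. Epcam stood at 6.84 in sshRNA 1d IR and 6.81 in sshRNA no IR cells, and Col1a1 at 5.22 and 5.25. Cd68, expressed by macrophages and other cells, was bright and changed by 0.43 (adjusted p = 0.338). The targeted genes did not move in the control line, in which Usf1 changed by 0.02 ± 0.08 and Usf2 by 0.04 ± 0.16 (± SE here and below).

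The 5S rRNA had the largest shift of any class. The extraction columns retain short RNA poorly, and whether recovery of this and the other small RNAs was even between arrays was not tested. Rn5s, the 5S gene, had log2 values of 16.88, 16.42 and 16.57 in sshRNA 1d IR cells, against 13.78, 14.84 and 15.01 in sshRNA no IR cells. The change was 2.08 ± 0.40, or 4.24-fold (adjusted p = 0.0121), and its lowest irradiated array lay above its highest untreated one. The same values were given to 26 copies of the gene, and the 52 rRNA calls rested on 13 distinct profiles. These copies lie mostly in the 5S array on chromosome 8, and that chromosome held 63 of the genes called higher (4.57% of its 1378), 48 of them 5S copies. The first untreated array lay more than 1 log2 unit below the other untreated ones, and the call of Rn5s was lost on leaving out either of 2 arrays (adjusted p = 0.072 without sshRNA 1d IR replicate 1). The mitochondrial 12S rRNA, mt-Rnr1, changed by -0.06 and was not called.

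Genes annotated as snRNA, the class that holds the spliceosomal RNAs, gave 57 calls among 915, all higher and with 48 distinct profiles. Rnu1b1, a U1 RNA gene that recognises 5' splice sites, had 17.25, 17.06 and 17.35 in sshRNA 1d IR cells, against 15.10, 15.38 and 15.89 in sshRNA no IR cells (1.76 ± 0.23, adjusted p = 0.00111). Rnu1a1, the other main U1 form, had 18.44, 18.35 and 18.49 in sshRNA 1d IR cells and 16.86, 17.37 and 17.80 in sshRNA no IR cells (1.09 ± 0.17, adjusted p = 0.0042). Both U1 genes kept the call without any single array. Rnu11, the U1 counterpart of the minor spliceosome, had 13.94, 13.47 and 14.13 in sshRNA 1d IR cells and 12.58, 12.56 and 12.80 in sshRNA no IR cells (1.20 ± 0.26, adjusted p = 0.0227), and lost the call without any one of 5 arrays (adjusted p up to 0.109). Most other called loci were predicted small nuclear RNA genes known by a number only. Of the spliceosomal RNAs with a name of their own, U2, U6 and U12 were not called. The change was 0.86 ± 0.24 for U2 (Rnu2-10, adjusted p = 0.0699), 0.72 ± 0.20 for U6 (Rnu6, adjusted p = 0.0695) and 0.17 ± 0.16 for U12 (Rnu12). Some abundant noncoding RNAs outside the spliceosome gave no call either. The signal recognition particle RNA Rn7s1 changed by -0.06 ± 0.07, the transcription regulator Rn7sk by 0.01 ± 0.07, and the RNase MRP component Rmrp by 0.20 ± 0.15. The first of these stood between 19.32 and 19.43 in sshRNA 1d IR cells and between 19.42 and 19.46 in sshRNA no IR cells, near the top of the scale.

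Small nucleolar and Cajal body RNAs also rose, with 44 of 955 snoRNA genes (4.61%) and 7 of 37 guide RNA genes (18.9%) called higher and none lower, against 1.15% of all genes. The largest change was that of Snora75, an H/ACA RNA, with 10.94, 10.66 and 11.23 in sshRNA 1d IR cells, against 8.41, 8.72 and 8.96 in sshRNA no IR cells (2.25 ± 0.45, adjusted p = 0.0142). Snord16a, a C/D RNA, had 15.53, 14.96 and 15.60 in sshRNA 1d IR cells and 13.33, 13.70 and 14.05 in sshRNA no IR cells (1.67 ± 0.32, adjusted p = 0.0121). Snord98 had 7.68, 7.54 and 8.22 in sshRNA 1d IR cells and 6.12, 6.19 and 6.37 in sshRNA no IR cells (1.59, adjusted p = 0.0132). The increase thus covered dim and bright members and both chemical families. The U3 RNA gene Rnu3b2, which takes part in cutting the rRNA precursor, had 13.99, 13.77 and 14.06 in sshRNA 1d IR cells and 12.45, 12.82 and 12.76 in sshRNA no IR cells (1.27 ± 0.19, adjusted p = 0.00318) and kept its call without any single array. Rnu3a, another U3 gene, changed by 0.76 and was not called (adjusted p = 0.18). The same step of rRNA processing uses Snora73b, which had 15.16, 14.29 and 14.31 in sshRNA 1d IR cells and 13.33, 13.09 and 13.03 in sshRNA no IR cells (1.44 ± 0.29, adjusted p = 0.0152). Snord93 had 16.15, 15.29 and 15.36 in sshRNA 1d IR cells and 14.51, 14.20 and 14.17 in sshRNA no IR cells (1.31 ± 0.21, adjusted p = 0.00424), a call kept without any single array. Among Cajal body RNAs, Scarna9 rose by 1.11 ± 0.23, Scarna8 by 0.95 and Scarna10 by 0.84. The calls of Snora75, Snord16a, Snord98, Snora73b and Scarna9 were each lost on leaving out any of 3 or 4 single arrays, with an adjusted p of up to 0.112. Members that were not called ran from Snord45b, at 2.04 with widely spread replicates (adjusted p = 0.14), to Snora78 at -0.43.

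The genes that carry these snoRNAs in their introns were largely without a call. Of the 44 snoRNAs called higher, 24 lay within the span of a measured protein-coding gene, and 23 of those hosts were above the dim limit. Median changes were 1.23 for the snoRNAs and 0.00 for the hosts, whose changes ran from -0.30 to 0.87, and 1 host of 22 distinct ones was called. Ncl, which encodes the rRNA-binding protein nucleolin and hosts Snora75, changed by -0.13 ± 0.13 (adjusted p = 0.78). The ribosomal protein gene Rpl4, host of Snord16a, changed by 0.01 (adjusted p = 0.983), and Ccar1, host of Snord98, by 0.13. The translation factor gene Eef1b2, host of Snora41, changed by 0.29 (adjusted p = 0.049), below the fold required, against 0.61 for the snoRNA. Cep295, a centriole protein gene, was the one host called, at 0.87 ± 0.17 (adjusted p = 0.0142), and its guide RNA Scarna9 rose by 1.11. Hosts were assigned from gene spans on GRCm38.p6 without regard to strand.

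MicroRNA loci gave 25 calls, all higher, among 607 genes, with 21 distinct profiles. An array cluster covers the locus, so that the mature miRNA, its hairpin and the primary transcript cannot be told apart. The mature sequences below, from RefSeq on GRCm38.p6, are those of 8 of the called loci, shown 5' to 3' with the seed (bases 2 to 8), the part that pairs with target mRNAs, in capitals. They show GU or AC repeats in the seeds of the Mir466 members printed.
mmu-miR-466k: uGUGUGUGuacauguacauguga
mmu-miR-466j: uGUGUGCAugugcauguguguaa
mmu-miR-466i-3p: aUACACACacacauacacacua
mmu-miR-467h: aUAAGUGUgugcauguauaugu
mmu-miR-3471: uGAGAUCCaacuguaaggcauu
mmu-miR-3472: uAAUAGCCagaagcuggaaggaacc
mmu-miR-5125: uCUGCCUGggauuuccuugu
mmu-miR-146a-5p: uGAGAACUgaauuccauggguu

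No seed was shared among the 14 mature sequences found for the called loci. Mir466k, with its mature sequence at chr3:85467396-85467418 on the plus strand, had 10.93, 10.67 and 10.81 in sshRNA 1d IR cells, against 9.59, 9.45 and 9.54 in sshRNA no IR cells (1.28 ± 0.16, adjusted p = 0.00103). Of the Mir466, Mir467 and Mir669 genes, 15 of 73 were called, and 5 of the profiles lay within Sfmbt2, a Polycomb group gene that was itself below the dim limit and changed by -0.06. Mir3471-1, with its mature sequence at chr4:10845585-10845606 on the minus strand, had 15.95, 15.65 and 15.78 in sshRNA 1d IR cells and 14.77, 14.54 and 14.77 in sshRNA no IR cells (1.10 ± 0.10). Mir3472, with its mature sequence at chrX:145039390-145039414 on the plus strand, had 14.00, 14.20 and 14.12 in sshRNA 1d IR cells and 13.15, 13.16 and 13.15 in sshRNA no IR cells (0.96 ± 0.11). With an adjusted p of 0.000492 each, these were the best separated miRNA loci, and 6 of 10 genes of the Mir3470 to Mir3473 group were called. Mir146, the gene of miR-146a, a miRNA known to be induced by NF-kB and to restrain its signalling, gives the mature miR-146a-5p from chr11:43374435-43374456 on the minus strand. It had 6.96, 6.12 and 6.64 in sshRNA 1d IR cells and 5.69, 5.51 and 5.21 in sshRNA no IR cells (1.10 ± 0.27, adjusted p = 0.0435), and lost the call without any one of 5 arrays (adjusted p up to 0.217). Mir5125, which lies within the splicing protein gene Srrm2 and has its mature sequence at chr17:23823339-23823358 on the plus strand, had the largest change of the miRNA loci (1.83 ± 0.36, adjusted p = 0.013, and 0.0853 without sshRNA 1d IR replicate 1), against 0.35 for Srrm2 (adjusted p = 0.0423, below the fold required).

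The class medians of every array are given as a description of how evenly this shift was spread. They were taken over the genes above the dim limit, 567 for snRNA, 480 for snoRNA and 239 for miRNA. The median snRNA gene stood at 8.11, 8.34 and 8.46 in sshRNA 1d IR cells and at 7.73, 8.01 and 8.12 in sshRNA no IR cells, so that the lowest irradiated array lay just below the highest untreated one. The median snoRNA gene stood at 6.0, 6.14 and 6.05 in sshRNA 1d IR cells and at 5.79, 5.78 and 5.85 in sshRNA no IR cells, without overlap. The median miRNA gene stood at 5.86, 5.86 and 5.90 in sshRNA 1d IR cells and at 5.69, 5.53 and 5.59 in sshRNA no IR cells. Over all genes of a class, dim ones included, the median change was 2.07 for rRNA (62 genes with 23 distinct profiles), 0.268 for snRNA, 0.133 for snoRNA and 0.079 for miRNA. Over those above the dim limit it was 0.476 for snRNA, 0.317 for snoRNA and 0.201 for miRNA. After centring on bright clusters the medians for snoRNA (-0.003) and miRNA (-0.058) were below 0, while those for rRNA (1.93) and snRNA (0.131) stayed above. Centring also lowered the median of all genes, from -0.015 to -0.151, and all of these class medians stayed above that. The hybridization spikes, which are added in fixed amounts, ranged from 10.66 to 11.06 in sshRNA 1d IR arrays and from 10.74 to 11.04 in sshRNA no IR arrays.

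Malat1 and Neat1, long noncoding RNAs that stay in the nucleus, were among the highest calls. Malat1, which is stored in nuclear speckles beside splicing factors, had 14.72, 13.89 and 14.31 in sshRNA 1d IR cells, against 12.75, 12.46 and 12.50 in sshRNA no IR cells (1.74 ± 0.30, adjusted p = 0.0076). Neat1, the scaffold of paraspeckles, had 7.74, 7.04 and 7.54 in sshRNA 1d IR cells and 6.16, 6.15 and 6.17 in sshRNA no IR cells (1.28 ± 0.22, adjusted p = 0.00795). Platr14, a long noncoding RNA that the list of nuclear RNAs below does not hold, had 12.37, 11.80 and 12.04 in sshRNA 1d IR cells and 10.61, 10.51 and 10.63 in sshRNA no IR cells (1.49 ± 0.26, adjusted p = 0.0073). All 3 were more than 1 log2 unit higher, with untreated arrays that lay close together, and all 3 narrowly lost the call without sshRNA 1d IR replicate 1 (adjusted p = 0.053 for Malat1, 0.0555 for Neat1 and 0.052 for Platr14). Pvt1, the neighbour of Myc, had 8.04, 7.57 and 7.74 in sshRNA 1d IR cells and 7.19, 7.14 and 7.07 in sshRNA no IR cells (0.65 ± 0.13, adjusted p = 0.0128), while Myc itself changed by -0.04. After centring on bright clusters Pvt1 changed by 0.51, below the fold required. Of the 19 listed nuclear and snoRNA host lncRNAs that were measured, 3 were called higher and none lower, and the list median was 0.257 with 15 members above 0, against -0.015 and 45.5% for all genes. Kcnq1ot1, which silences a cluster of imprinted genes, changed by 0.81 (adjusted p = 0.1).

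**Figure D2:**
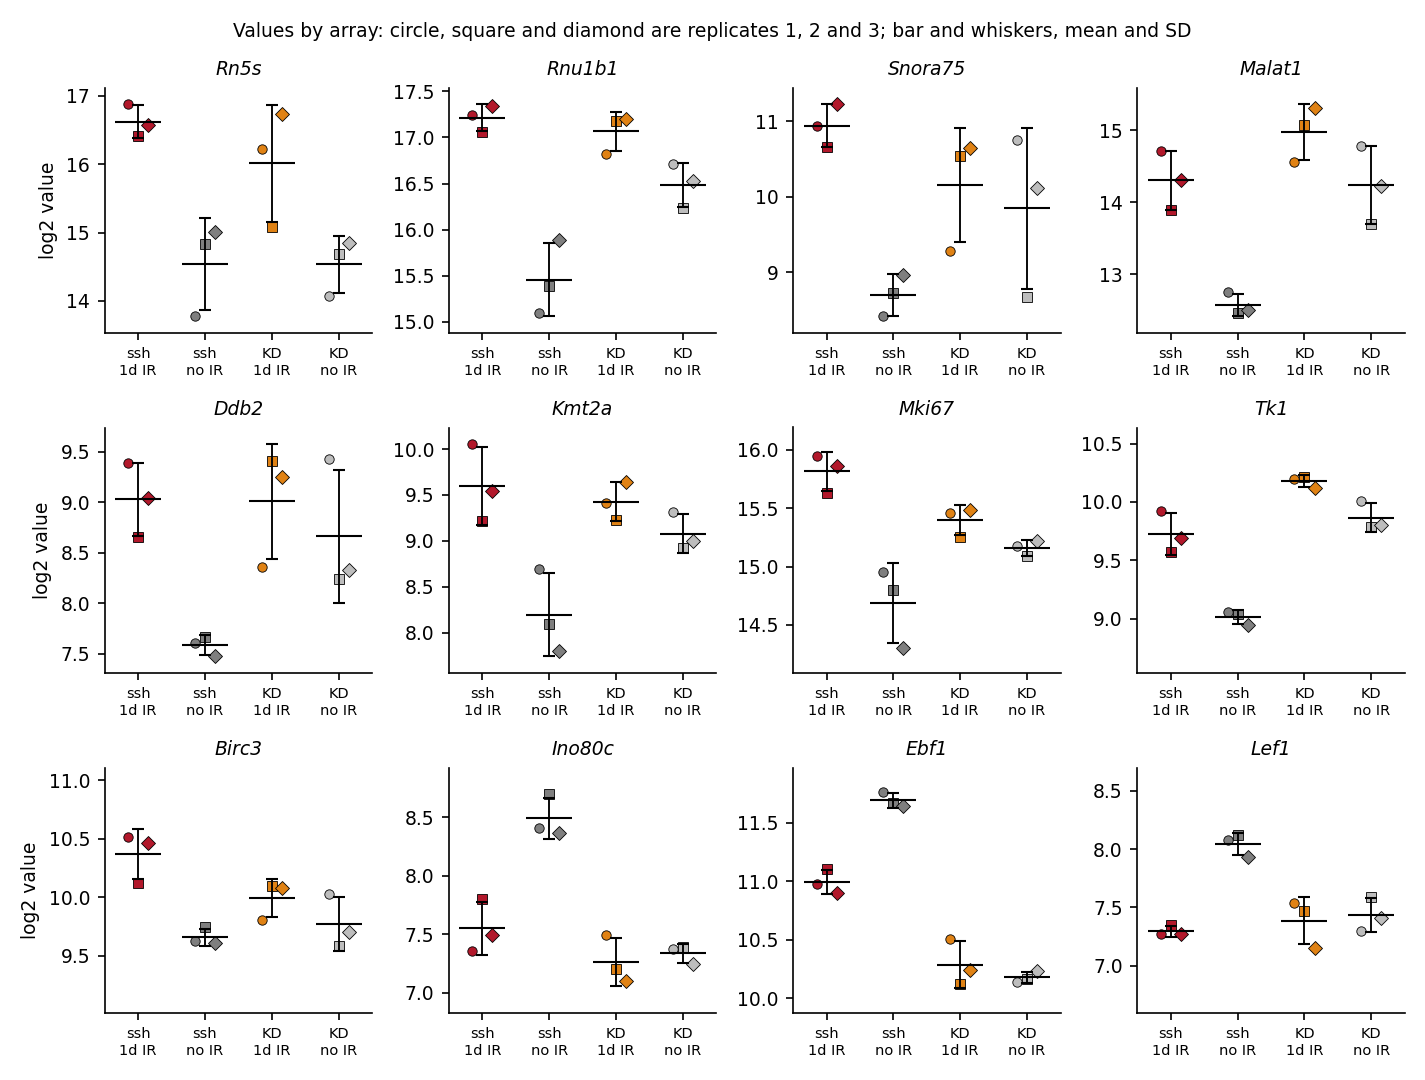
Log2 signal of 12 genes (vertical axes) in sshRNA 1d IR, sshRNA no IR, USFKD 1d IR and USFKD no IR cells. Circles, squares and diamonds are replicates 1, 2 and 3, bars are means and whiskers are the SD of 3 arrays; in the sshRNA cells the 3 arrays of one group lie clear of the 3 arrays of the other in every panel.

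Genes that sense DNA damage and replicate DNA gave few calls, and nearly all were higher. The shares to set beside the counts of these and the following lists are those over all genes, 1.15% higher and 0.485% lower, or over genes above the dim limit, 2.21% and 0.933%, and a list with 1 call stands on that gene alone. Ddb2, which recognises ultraviolet lesions in nucleotide excision repair, had 9.39, 8.66 and 9.04 in sshRNA 1d IR cells, against 7.61, 7.67 and 7.48 in sshRNA no IR cells (1.44 ± 0.29, adjusted p = 0.0163). It was the one call among 30 p53 target genes measured, whose median change was 0.031. Cdkn1a had 7.61, 7.73 and 7.71 in sshRNA 1d IR cells and 7.09, 7.30 and 7.23 in sshRNA no IR cells, a change of 0.48 ± 0.25 that was not called (adjusted p = 0.412) although the replicates did not overlap. Mdm2, the ligase that degrades p53, changed by -0.15 ± 0.15, and Ccng1, a p53-induced cyclin, by -0.08 ± 0.18. Topbp1, the activator of the ATR kinase, had 13.30, 12.97 and 13 in sshRNA 1d IR cells and 12.41, 12.31 and 12.31 in sshRNA no IR cells (0.74 ± 0.16, adjusted p = 0.0227) and was the one call among 20 checkpoint genes. Prkdc, the catalytic subunit of DNA-PK, rose by 0.67 ± 0.12 (adjusted p = 0.01), the one call among 16 end-joining genes. Rev3l, the catalytic subunit of the translesion polymerase zeta, rose by 0.66 ± 0.13 (adjusted p = 0.0142). None of 34 homologous recombination and Fanconi genes was called, although Brca1 changed by 0.55 (adjusted p = 0.0028), Fancd2 by 0.42 (adjusted p = 0.0305) and Slx4 by 0.40 (adjusted p = 0.018), all below the fold required. The calls of Ddb2 and Topbp1 were each lost without any one of 5 arrays. That of Rev3l was lost without any one of 3 arrays, and that of Prkdc without either of 2. The adjusted p was highest without sshRNA 1d IR replicate 1 (0.102 for Ddb2, 0.133 for Topbp1, 0.0685 for Prkdc and 0.0888 for Rev3l). After centring on bright clusters Prkdc (0.53) and Rev3l (0.53) were below the fold required.

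Replication and proliferation genes were called higher in a few members. Tk1, the thymidine kinase of S phase, had 9.92, 9.57 and 9.69 in sshRNA 1d IR cells, against 9.06, 9.04 and 8.95 in sshRNA no IR cells (0.71 ± 0.12, adjusted p = 0.00498). Cdc7, the kinase that fires replication origins, had 10.06, 9.57 and 9.82 in sshRNA 1d IR cells and 9.06, 8.97 and 8.86 in sshRNA no IR cells (0.85 ± 0.20, adjusted p = 0.0335). These were the 2 calls among 47 replication genes, Tk1 kept without any single array and Cdc7 lost without any one of 5 (adjusted p up to 0.177). After centring on bright clusters neither was called, Tk1 at 0.57 for its fold and Cdc7 at 0.71 for its adjusted p of 0.0525. The list median was 0.161 with 32 members above 0. Mki67, the coat protein of mitotic chromosomes and a marker of cycling cells, rose by 1.13 ± 0.14 (adjusted p = 0.000997) and was the one call among 59 mitosis genes. Plk1, the kinase that starts mitosis, changed by -0.94 ± 0.26 and was not called (adjusted p = 0.0693). None of 30 G1 and S phase cyclins and brakes was called. Zgrf1, a helicase of crosslink repair, had 9.03, 8.96 and 8.74 in sshRNA 1d IR cells and 7.95, 7.74 and 7.65 in sshRNA no IR cells (1.13 ± 0.20, adjusted p = 0.00742), and Recql4, a helicase of replication, rose by 0.62. Zgrf1 kept its call without any single array and Recql4 lost it without sshRNA 1d IR replicate 1 (adjusted p = 0.069). Recql4 was also below the fold required after centring on bright clusters. Zgrf1, Recql4 and the genes of the next paragraphs that belong to none of the lists were chosen after their values were seen.

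Chromatin modifiers were called in 4 of 69 genes. Kmt2a, a histone H3 lysine methyltransferase, had 10.05, 9.21 and 9.54 in sshRNA 1d IR cells, against 8.69, 8.10 and 7.81 in sshRNA no IR cells (1.40 ± 0.21, adjusted p = 0.00362). Kmt2c, of the same enzyme family, had 11.35, 10.74 and 10.95 in sshRNA 1d IR cells and 10.35, 9.90 and 9.74 in sshRNA no IR cells (1.02 ± 0.17, adjusted p = 0.00501). Atrx, a remodeller of heterochromatin, had 11.51, 11.38 and 11.39 in sshRNA 1d IR cells and 10.64, 10.54 and 10.30 in sshRNA no IR cells (0.94, adjusted p = 0.0297). Kmt2a and Kmt2c kept the call without any single array, and Atrx lost it on leaving out any of the 6 (adjusted p up to 0.139). Of the 69, 3 were called higher (4.35%) and 1 lower (1.45%), with a median of 0.092. Other genes called higher, chosen after their values were seen, were Golgb1 (0.94) and Golga4 (0.82) of the Golgi, Akap9 (0.80) of the centrosome, Ubr4 (0.95) and Mycbp2 (0.80). Vps13b (0.66), Vps13c (0.69) and Dync1h1 (0.64), the heavy chain of dynein, were chosen in the same way. These last 3 fell below the fold required after centring on bright clusters. When the protein-coding genes above the dim limit were split by gene span into 10 groups of equal size, the longest group held 1.93% called higher and the shortest 0.579%, and the shares called lower were 1.35% and 0.772%. The groups between held 0.87% to 1.45% called higher, and the median change of a group ran from -0.061 to -0.031 without following the order of length.

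Survival and B cell genes were each called in a few members. Birc3 and Birc2, the cellular inhibitors of apoptosis that bind TRAF2, were the 2 calls among 21 death receptor and caspase genes. Birc3 had 10.52, 10.12 and 10.46 in sshRNA 1d IR cells, against 9.62, 9.74 and 9.61 in sshRNA no IR cells (0.71 ± 0.14, adjusted p = 0.0121). Birc2 had 9.03, 8.93 and 8.96 in sshRNA 1d IR cells and 8.18, 8.25 and 8.19 in sshRNA no IR cells (0.76 ± 0.16, adjusted p = 0.0204). Birc6, a large relative of both, rose by 0.70. The NF-kB list of 30 genes had no call and a median of 0.127, with Nfkbid at 0.57 (adjusted p = 0.03) below the fold required and Rela at -0.24. The BCL2 family of 16 genes had no call, with Bak1 at -0.52. Fcer2a, the low-affinity IgE receptor CD23 of B cells, had 7.30, 7.11 and 7.46 in sshRNA 1d IR cells and 6.49, 6.43 and 6.36 in sshRNA no IR cells (0.87 ± 0.13, adjusted p = 0.0034). Prkcd, a kinase of B cell tolerance, rose by 0.71 and the class I molecule H2-K1 by 0.65. The joining segment Igkj3 of the kappa light chain locus had 14.67, 13.91 and 14.42 in sshRNA 1d IR cells and 11.91, 11.73 and 11.15 in sshRNA no IR cells (2.74 ± 0.51, adjusted p = 0.0111). It was the one call among 211 immunoglobulin segments, lost without either of 2 arrays (adjusted p up to 0.069). Cd22, an inhibitory receptor, changed by 0.62 and narrowly missed the threshold (adjusted p = 0.0545). Birc2 and H2-K1 lost their calls without any one of 5 arrays, and Birc3 without any one of 3. The adjusted p was highest without the first sshRNA 1d IR array (0.101 for Birc2, 0.0754 for Birc3 and 0.125 for H2-K1). Fcer2a kept its call without any single array. Birc3 (0.57) and H2-K1 (0.52) also lost the call after centring on bright clusters. So did Birc6 and Prkcd, whose changes then were below the fold required.

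Increases of protein-coding genes outside these groups included enzymes and transporters. Pde1b, a cyclic nucleotide phosphodiesterase, had 7.68, 7.42 and 7.42 in sshRNA 1d IR cells, against 6.26, 6.03 and 5.95 in sshRNA no IR cells (1.43 ± 0.19, adjusted p = 0.00126). Dalrd3 had 9.67, 9.30 and 9.53 in sshRNA 1d IR cells and 8.25, 8.33 and 8.26 in sshRNA no IR cells (1.22 ± 0.20, adjusted p = 0.00512). Ccdc84, a centrosome protein gene, had 8.55, 8.25 and 8.5 in sshRNA 1d IR cells and 7.35, 7.34 and 7.16 in sshRNA no IR cells (1.15 ± 0.15, adjusted p = 0.00103). All 3 kept the call without any single array. Called genes of mitochondrial function were the protease Lonp1 (0.91 ± 0.16), the iron carriers Slc25a28 (0.98 ± 0.22) and Slc25a37 (0.62 ± 0.12), the cardiolipin enzyme Taz (0.95 ± 0.19) and ND6 (0.69 ± 0.18), which is encoded on the mitochondrial genome. They were picked after their values were seen, and of the 86 listed oxidative phosphorylation genes of the nucleus none was called (median -0.029). Subunits of the proton pump of lysosomes, Atp6v0b (0.75 ± 0.14) and Tcirg1 (0.60 ± 0.13), and the proton channel Hvcn1 (0.64 ± 0.16) rose as well. Of the 30 listed lysosome and autophagy genes none was called (median -0.015). By the size of their changes, Slc25a37, ND6, Tcirg1 and Hvcn1 fell below the fold required after centring on bright clusters. Snapc4, a subunit of the complex that starts transcription of small nuclear RNA genes, had 8.82, 8.39 and 8.72 in sshRNA 1d IR cells and 7.99, 8.02 and 7.91 in sshRNA no IR cells (0.67 ± 0.13, adjusted p = 0.0118, and 0.0744 without sshRNA 1d IR replicate 1). Splicing-related genes that rose were Ccnl2 (0.90 ± 0.20), Acin1 (0.60 ± 0.09) and Taf15 (0.65 ± 0.13). None of the 43 splicing factors and kinases listed was called, and Srsf1 changed by -0.49 (adjusted p = 0.0423, below the fold required). Snapc4, Acin1 and Taf15 were likewise below the fold required after centring on bright clusters.

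The 82 protein-coding genes that fell had smaller changes, none beyond -0.98. Lef1, a Wnt-responsive transcription factor of early B cells, had 7.27, 7.35 and 7.27 in sshRNA 1d IR cells, against 8.08, 8.12 and 7.93 in sshRNA no IR cells (-0.75 ± 0.12, adjusted p = 0.00393). Ebf1, a factor that specifies the B lineage, had 10.98, 11.10 and 10.90 in sshRNA 1d IR cells and 11.76, 11.67 and 11.65 in sshRNA no IR cells (-0.70 ± 0.11, adjusted p = 0.00391) and was the one call among 24 B cell identity factors. Ino80c, a subunit of the INO80 nucleosome remodeller, had 7.36, 7.80 and 7.49 in sshRNA 1d IR cells and 8.41, 8.70 and 8.37 in sshRNA no IR cells (-0.94 ± 0.12, adjusted p = 0.00124). All 3 kept the call without any single array. So did Rab8b, a vesicle transport GTPase gene, with 10.61, 10.76 and 10.63 in sshRNA 1d IR cells and 11.32, 11.30 and 11.35 in sshRNA no IR cells (-0.66 ± 0.08, adjusted p = 0.000847). Orai3, a store-operated calcium channel, had 6.80, 6.83 and 6.87 in sshRNA 1d IR cells and 7.61, 7.70 and 7.68 in sshRNA no IR cells (-0.83 ± 0.12, adjusted p = 0.00249). Slc7a8, a transporter of large neutral amino acids, had 8.10, 7.65 and 7.66 in sshRNA 1d IR cells and 8.69, 8.48 and 8.43 in sshRNA no IR cells (-0.73 ± 0.11, adjusted p = 0.00318).

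Further genes that fell act in protein folding, metabolism and RNA supply. Bag3, the co-chaperone of HSP70 in selective autophagy, had 8.16, 8.05 and 8.11 in sshRNA 1d IR cells, against 9.26, 9.01 and 8.96 in sshRNA no IR cells (-0.97 ± 0.22, adjusted p = 0.0287), the one call among 22 heat shock genes. Dpagt1, which starts the synthesis of N-glycans, had 9.69, 9.72 and 9.53 in sshRNA 1d IR cells and 10.67, 10.57 and 10.64 in sshRNA no IR cells (-0.98 ± 0.23, adjusted p = 0.0293). Both lost the call on leaving out any of the 6 arrays (adjusted p up to 0.105 for Bag3 and 0.109 for Dpagt1). Stt3b, a subunit of the enzyme that transfers the finished glycan, fell by 0.63. Cat, the catalase gene, had 13.10, 13.29 and 13.11 in sshRNA 1d IR cells and 13.81, 13.94 and 13.85 in sshRNA no IR cells (-0.70, adjusted p = 0.0142), the one call among 22 antioxidant genes. The aspartate-glutamate carriers Slc25a12 and Slc25a13 of the inner mitochondrial membrane fell by 0.62 and 0.61, which sets them against the iron carriers of the same family that rose. Ube2n, the conjugating enzyme of lysine-63 ubiquitin chains used at DNA breaks and in NF-kB signalling, had 13.22, 13.51 and 13.37 in sshRNA 1d IR cells and 14.07, 14.18 and 13.85 in sshRNA no IR cells (-0.67 ± 0.13, adjusted p = 0.0132). The ribosome assembly genes Pno1, Nol6 and Rsl24d1, which the ribosome biogenesis list does not hold, fell by 0.75, 0.70 and 0.59, and Polr2d, Ints14 and Cnot11, of RNA polymerase II, the Integrator and the CCR4-NOT complex, by 0.61, 0.60 and 0.60. Cat lost its call without any one of 4 arrays and Ube2n without any one of 3 (adjusted p up to 0.077 for Cat and 0.0851 for Ube2n). Map2k4, a kinase of the JNK pathway, fell by 0.70 and kept its call without any single array.

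Whole lists behind these single calls moved little. The ribosome biogenesis list, without the 3 genes just named, had no call among 57, a median of -0.173 and 7 members above 0, with nucleophosmin (Npm1) at -0.06. Mitochondrial ribosomal proteins had 1 call among 79, Mrpl51 at -0.72, a median of -0.174 and 7 members above 0. Proteasome genes had no call among 38 and a median of -0.131, with 5 members above 0. These medians stand beside -0.015 for all genes and -0.034 for genes above the dim limit. Cytosolic ribosomal proteins had no call among 35 but 33 members above 0 and a median of 0.181. Centring on bright clusters left this median at 0.044, against -0.151 for all genes. Interferon-stimulated genes (36), genes of nucleic acid sensing (18), cytokines (25), B cell receptor signalling (32) and class II presentation (15) had no call in either direction and medians between -0.05 and 0.00.

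**Figure D3:**
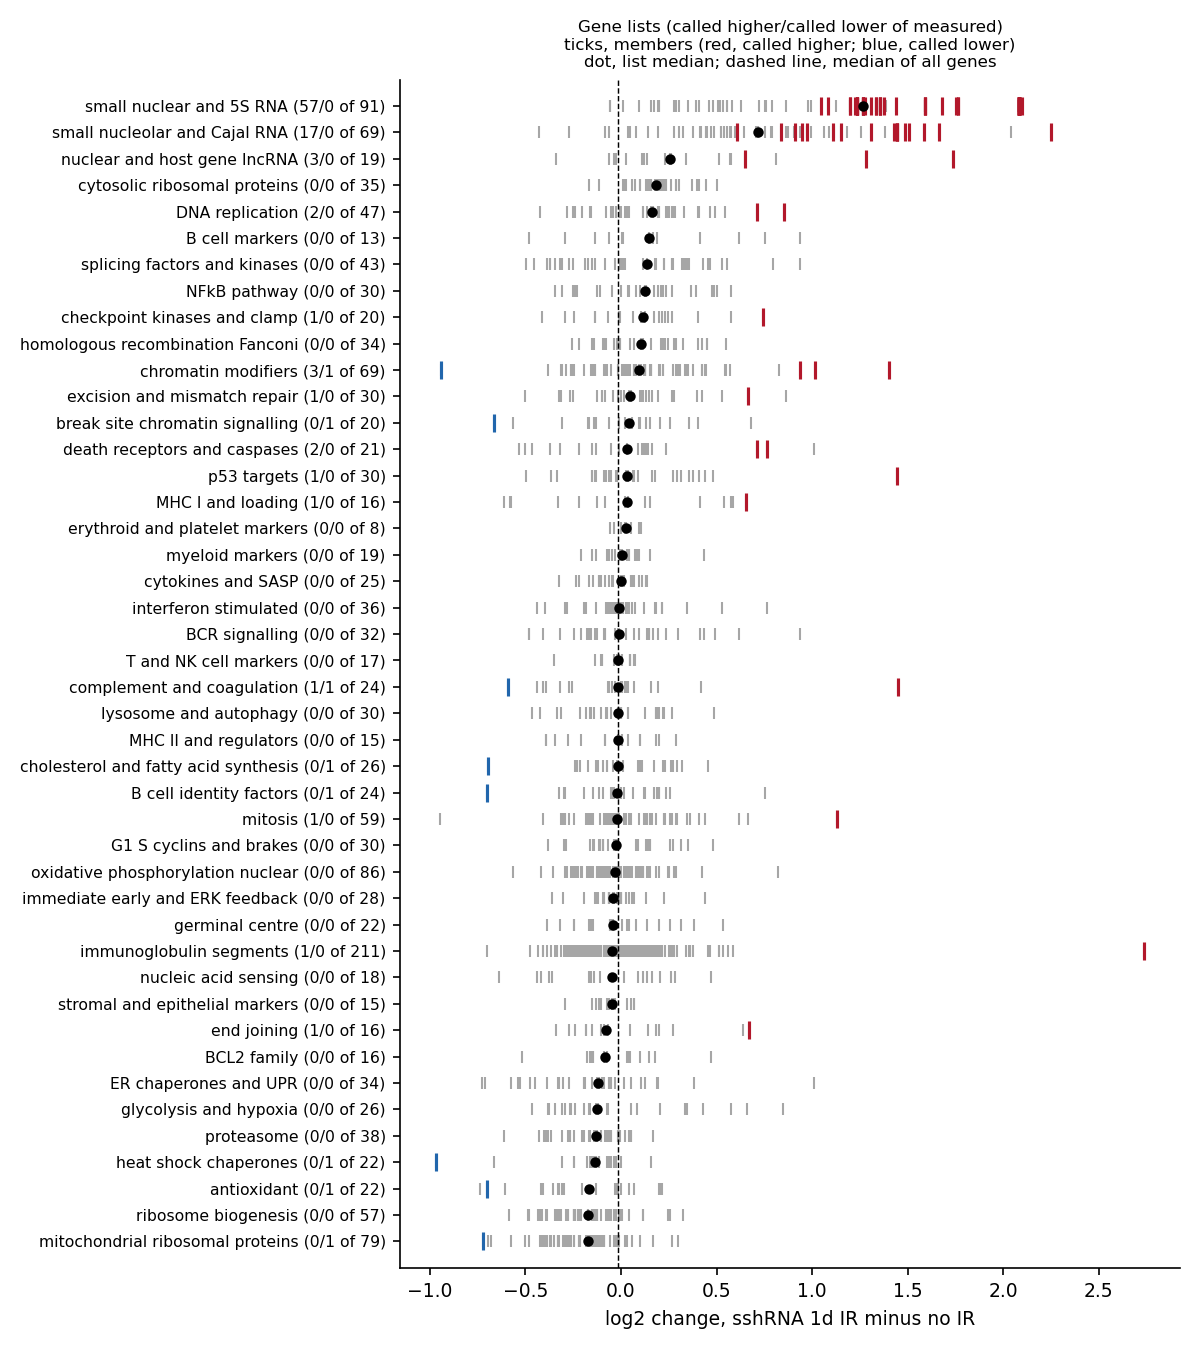
Log2 change (sshRNA 1d IR minus sshRNA no IR, horizontal axis) of the members of each gene list with at least 8 measured members, ordered by median. Ticks are members, red when called higher and blue when called lower, dots are list medians and the dashed line is the median of all genes at -0.015. The small nuclear and 5S RNA list (57 of 91 called higher) and the small nucleolar RNA list (17 of 69) stand at the top. Copies with identical values count as members, and the 57 calls held 21 distinct profiles.

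Pseudogenes accounted for 64 of the 146 genes called lower. Tmem229b-ps had 11.35, 11.64 and 11.10 in sshRNA 1d IR cells, against 12.44, 12.40 and 12.30 in sshRNA no IR cells (-1.01, adjusted p = 0.0113). Its call was lost without any one of 3 arrays (adjusted p up to 0.0603). The parent Tmem229b changed by -0.51 (adjusted p = 0.0426, below the fold required). In 3 other pairs the pseudogene and its parent were both called. Nfyc-ps fell by 0.99 and Nfyc, a subunit of the CCAAT-binding factor NF-Y, by 0.72. Rab11b-ps2 fell by 0.89 and Rab11b, a GTPase of recycling endosomes, by 0.61. Ube2nl fell by 0.85 and Ube2n by 0.67. Plk-ps1 fell by 0.88, while its parent Plk1, at -0.94, was not called. Such near-identical copies can bind the same RNA on an array, and whether the pseudogene or its parent gave the signal is uncertain.

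Promoters of the called protein-coding genes were read for the motifs of USF and of 2 cell cycle regulators, in the RefSeq windows that run from upstream of the gene start to just past it (GRCm38.p6, both strands). CACGTG, the E-box bound by USF1 and USF2, stood in 7 of 96 windows of genes called higher (7.29%) and 12 of 67 of genes called lower (17.9%), against 12% of the 8532 windows of genes above the dim limit and 7.15% of all windows of that length. CCAAT, the box bound by NF-Y, stood in 46.9% of the higher, 40.3% of the lower, 44.1% of the genes above the limit and 37.4% of all windows. TTTGAA, the CHR element of genes that peak in mitosis, stood in 18.8% of the higher, 19.4% of the lower, 14.5% of the genes above the limit and 17.9% of all windows. No test was made of these shares. The window of Bend3, which encodes a repressive DNA-binding protein and has its E-box 200 bases before the start, and that of Mki67, which holds both cell cycle motifs (CCAAT also as ATTGG on the other strand), are printed with the motifs in capitals. Bend3 (chr10:43478890-43479189, plus strand) had 8.37, 8.5 and 8.28 in sshRNA 1d IR cells and 9.34, 9.25 and 9.17 in sshRNA no IR cells (-0.87 ± 0.20, adjusted p = 0.0289). Its call was lost without any one of 5 arrays (adjusted p up to 0.122). Mki67 (chr7:135716330-135716629, minus strand) had 15.95, 15.63 and 15.87 in sshRNA 1d IR cells and 14.96, 14.80 and 14.30 in sshRNA no IR cells.
Bend3: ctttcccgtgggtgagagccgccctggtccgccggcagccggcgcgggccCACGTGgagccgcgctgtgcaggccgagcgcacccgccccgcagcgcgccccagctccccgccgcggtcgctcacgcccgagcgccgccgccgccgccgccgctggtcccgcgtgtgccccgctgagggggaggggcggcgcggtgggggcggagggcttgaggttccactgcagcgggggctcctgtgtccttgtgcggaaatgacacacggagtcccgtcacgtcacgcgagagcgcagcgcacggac
Mki67: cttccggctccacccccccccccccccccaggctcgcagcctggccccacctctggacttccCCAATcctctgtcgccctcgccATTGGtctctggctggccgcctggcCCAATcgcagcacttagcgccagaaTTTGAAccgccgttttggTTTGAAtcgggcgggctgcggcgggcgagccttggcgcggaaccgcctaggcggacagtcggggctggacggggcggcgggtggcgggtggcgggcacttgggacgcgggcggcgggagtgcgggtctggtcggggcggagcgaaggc

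In USFKD cells the same comparison gave no call, and the first pair of arrays went against the others. No cluster of 65956 passed (0.0%), the smallest adjusted p was 0.0658, and 5465 had an unadjusted p below 0.05. The USFKD arrays share no sample with the control line, so that the change of each called gene could be read in them independently. Of the 347 genes called higher in sshRNA cells, 333 (96.0%) also had a change above 0 in USFKD cells, with medians of 0.377 in USFKD cells and 0.941 in sshRNA cells. Of the 146 called lower, 100 (68.5%) had a change below 0, with medians of -0.054 in USFKD cells and -0.67 in sshRNA cells. Over all genes 57.5% had the same sign in both lines. The genes had been selected on their sshRNA change, which by itself makes values in other arrays smaller. Array by array, the median of the 124 protein-coding genes called higher was -0.20 for USFKD 1d IR minus USFKD no IR replicate 1, 0.45 for replicate 2 and 0.44 for replicate 3, and that of the 82 called lower was 0.26, -0.27 and -0.28. Igkj3 had 12.90, 14.95 and 14.77 in USFKD 1d IR cells and 14.81, 12.93 and 13.32 in USFKD no IR cells, and Ddb2 had 8.36, 9.41 and 9.26 in USFKD 1d IR cells and 9.43, 8.24 and 8.33 in USFKD no IR cells. In both genes the first array of each group lay with the other group, whereas for Rn5s, at 16.22, 15.08 and 16.74 in USFKD 1d IR cells and 14.07, 14.69 and 14.85 in USFKD no IR cells, it lay with its own. Whether these arrays are exchanged cannot be told from the labels. Without both first arrays, a setting chosen after seeing the data, 6 clusters were called, and the medians in USFKD cells were 0.576 for genes called higher in sshRNA cells (338 of 347 above 0) and -0.202 for genes called lower (121 of 146 below 0). Across the 15646 genes above the dim limit, the changes of the lines had a Pearson r of 0.585 and a Spearman rho of 0.425, given as a description since genes of an array are not independent.

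Single genes differed in how far the knockdown line went along. Snora73b changed by 1.40 in USFKD cells and 1.44 in sshRNA cells, and Rn5s by 1.48 in USFKD cells and 2.08 in sshRNA cells. Snora75 changed by 0.31 in USFKD cells and 2.25 in sshRNA cells, Mir466k by 0.20 in USFKD cells and 1.28 in sshRNA cells, and Mki67 by 0.24 in USFKD cells and 1.13 in sshRNA cells. Without both first USFKD arrays the USFKD change was 1.20 ± 0.40 for Snora75, 1.27 ± 0.37 for Snora73b, 1.14 ± 0.50 for Rn5s, 0.17 ± 0.21 for Mir466k and 0.21 ± 0.18 for Mki67, so that the low value of Snora75 rested on these arrays and those of Mir466k and Mki67 did not. Small RNA genes called higher had medians of 0.576 in USFKD cells and 1.223 in sshRNA cells, and protein-coding genes called higher had medians of 0.259 in USFKD cells and 0.774 in sshRNA cells. Ebf1 changed by 0.11 in USFKD cells and -0.70 in sshRNA cells, Lef1 by -0.05 in USFKD cells and -0.75 in sshRNA cells, and Ino80c by -0.07 in USFKD cells and -0.94 in sshRNA cells, and without both first USFKD arrays they changed by -0.02, -0.18 and -0.17 in USFKD cells. The difference between the lines was tested as an interaction term, and none of the 65956 clusters passed (0.0%, smallest adjusted p = 0.623, 4286 with an unadjusted p below 0.05), so that no gene was shown to respond differently. Without both first USFKD arrays none passed either (smallest adjusted p = 0.684, 3268 with an unadjusted p below 0.05). The lines also differed before radiation. The median difference, USFKD no IR minus sshRNA no IR, was 0.418 for genes called higher and -0.684 for genes called lower, in the direction of the 1-day change. The sshRNA no IR arrays enter both differences, and a deviation of these arrays would move both.

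**Figure D4:**
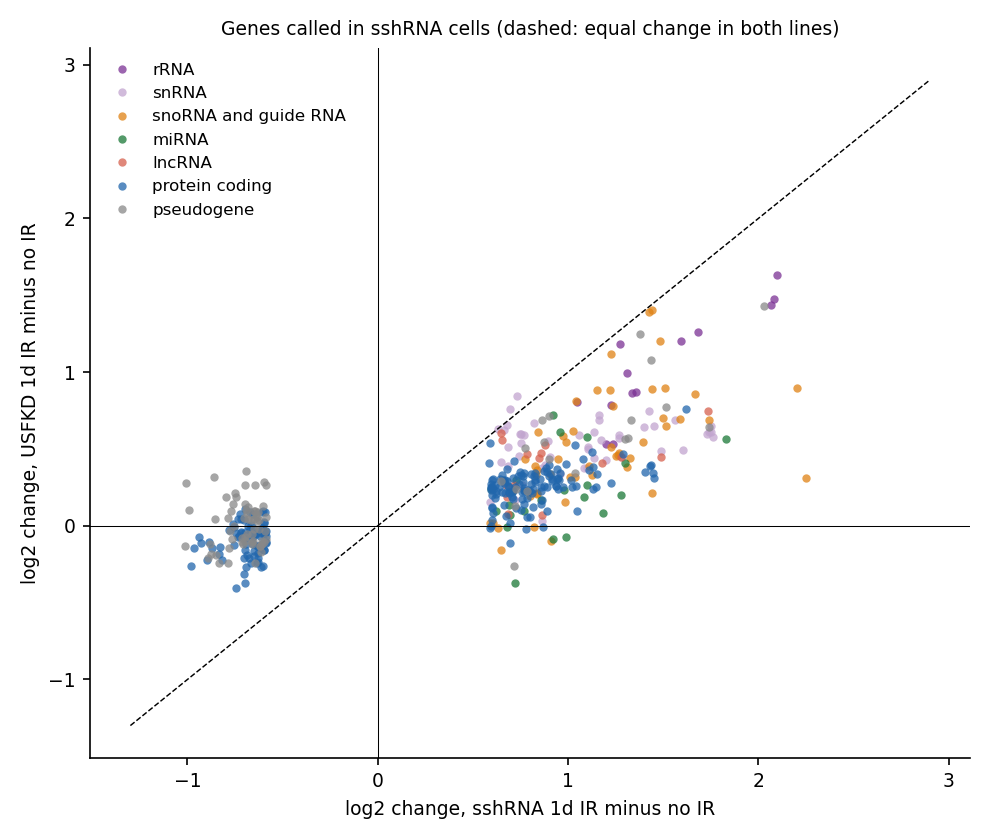
Log2 change 1 day after IR in sshRNA cells (horizontal axis) and in USFKD cells (vertical axis) for the genes called in sshRNA cells, coloured by class, with 1 point per distinct profile. The dashed line marks equal change; 333 of 347 genes called higher also lie above 0 in USFKD cells, mostly below the line, and genes called lower lie around a USFKD change of -0.054.

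At 7 days after IR the control line had 10742 clusters called (16.3%), 7571 higher (11.5%) and 3171 lower (4.81%), and 2743 genes higher (9.11%) and 2565 lower (8.52%). The 1-day and 7-day comparisons share the untreated arrays. Read side by side, Rn5s changed by 2.08 at 1 day and 3.63 at 7 days, Malat1 by 1.74 and 2.03, and Neat1 by 1.28 and 1.92. Snord104 changed by 0.97 at 1 day and 5.00 at 7 days. Mki67 had opposite signs at the 2 times, 1.13 at 1 day and -1.63 at 7 days. Among the genes that fell, Slc7a8 changed by -0.73 at 1 day and -2.42 at 7 days, Cat by -0.70 and -2.08, Ebf1 by -0.70 and -1.86, Ino80c by -0.94 and -1.74, and Lef1 by -0.75 and -1.25. The median protein-coding gene called higher at 1 day stood at 0.774 at 1 day and 0.191 at 7 days, and the median small RNA gene called higher at 1.223 and 2.014.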

How the data were processed

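RNA of the M12-5B3 lines was extracted on RNeasy Plus columns, which retain short RNA poorly, labelled with the WT Plus kit and hybridized to Affymetrix Mouse Transcriptome 1.0 arrays. The authors summarised the signals by RMA (robust multichip averaging) in Affymetrix Expression Console and deposited 1 log2 value per transcript cluster and array, so that the values were background-corrected and quantile-normalized before use, with no versions given. Depth does not apply to arrays, and the number of arrays (3 per group) limits the precision. Replicate arrays had correlations of 0.9944 to 0.9966 in sshRNA 1d IR cells and 0.9964 to 0.9972 in sshRNA no IR cells. The methods call the 3 replicates of a condition independent.

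The 18 arrays (6 groups) were fitted with a mean per group in limma 3.58.1 (R 4.3.3, lmFit and eBayes, 12 residual and 2.65 prior degrees of freedom), with two-sided tests and Benjamini-Hochberg adjustment over all 72688 rows, of which 6732 are array controls. The methods of the study used the same threshold in a model of line, treatment and time. The fit was tested on simulated data. Of the clusters, 30638 carried 1 gene symbol in the platform annotation, 2176 several and 33142 none. Gene classes came from RefSeq (GRCm38.p6), matched by Entrez ID (22596), symbol (7710) or synonym (330). A limit of dim signal, 4.60, was set from 1527 olfactory and vomeronasal receptor genes.

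The members, the 46 gene lists (1593 genes measured) and the tests were chosen with earlier results of these data known, and no list was tested as a set. Named genes were, of the called genes without overlap of replicates, those 20 that rose most and those 20 that fell most, up to 6 called members of each list or else the 3 brightest, and Usf1, Usf2, Trp53, Cdkn1a, Mdm2, Ccng1, Actb and Gapdh. Trp53, Gapdh and Hba-a1 were not analysed here, and many of the largest increases were copies of 5S rRNA with identical values. Actb changed by -0.03. The labels number the replicates without saying what the numbers share. Deviations of same-numbered arrays from their group means correlated at 0.213, 0.112 and 0.105, against -0.132 to 0.032 for other pairs. This is a weak hint from the data that the numbers pair the arrays. The reported calls did not use such a pairing. Only the replicate block and the USFKD differences given array by array rest on it.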

Additional observations from a re-analysis of the deposited data

Results flagged for a closer look

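The arrays carry control rows that represent no gene of the study, and these were compared between sshRNA 1d IR and sshRNA no IR cells in the same fit. Of the 6732 control rows, 86 were called (1.28%), 71 higher and 15 lower, a signal in rows outside the comparison of genes. All of them were among the 6546 control rows with identifiers of the MG type, and none was among the 31 Affymetrix controls or the 155 ERCC rows, of which 39 were above the dim limit. What the MG rows measure is not given in the sources used here, and their part in the result was not tested.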

How the results depend on the processing

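As reported, 1324 clusters were called in sshRNA cells. The count was 2013 with dim rows left out, 2398 with array weights and 2021 without a fold threshold, and it stayed within 1.5 times under the other planned settings (954 without moderation to 1697 without control rows). Leaving out 1 array at a time gave 363 to 1608 calls, 363 without sshRNA 1d IR replicate 1, 808 without its replicate 3, and 865, 581 and 683 on leaving out the untreated arrays 1, 2 and 3. By gene, 347 higher and 146 lower became 235 and 562 after centring and 281 and 428 after quantile normalization. The 164 lower calls of clusters became 664 after centring on bright clusters, 498 after quantile normalization, 513 without a fold threshold, 310 with array weights, 324 without sshRNA 1d IR replicate 2 and 26 without its replicate 1. Of the 493 called genes, 89 kept the call without any single array, 76 higher and 13 lower. In USFKD cells, where the alternatives were chosen after seeing the data, 0 calls became 17 with dim rows left out, 37 with array weights, 18 without control rows and 6 without both first arrays, and leaving out 1 array gave 0 to 391, with 391 on leaving out USFKD 1d IR replicate 2. The difference between the lines had 0 calls under every setting run.

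The rule for named genes took in 69 called genes, and other called genes described above are not in the counts that follow. Of the 69, 59 lost the call without sshRNA 1d IR replicate 1, 30 without its replicate 3 and 3 without its replicate 2. Leaving out untreated array 1, 2 or 3 ended the call of 40, 34 and 28. The call was lost by 13 without moderation, by 13 with the 12 arrays outside the comparison left out and by 7 after centring. Of the 69, 10 kept the call without any single array. Without the 7-day arrays, a setting chosen after seeing the data, the count was 1515 and 5 of the 69 lost the call. With the replicate block 1412 clusters were called, 1264 higher and 148 lower, and 5 of the 69 lost the call. They were Stag1, Nkain1, Ammecr1, Gm5943 and Snord58b, with an adjusted p of 0.0507 to 0.0602. The block changed no other call among the genes named by that rule.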
